A study of Mus musculus with 12 samples.

Results

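The genes of cholesterol synthesis and its control by the transcription factor SREBP2 were followed in mouse liver 6 h after dexamethasone. Members were chosen by gene symbol from a list of sterol synthesis enzymes, SREBP2 regulators and SREBP2 targets. Of 29 listed symbols, 28 genes were in the table, since Sc4mol and Msmo1 name 1 gene and the table held it as Msmo1. They were 28 of 24033 gene symbols, and 27 of them were among the 12965 tested genes, those with a mean log2 value of at least 4 over all libraries. The gene outside was Hmgcs1.

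Liver RNA was sequenced in 12 libraries of wild-type C57BL/6 female mice, 3 in each of 4 groups. The groups were intact females given dexamethasone, intact females given vehicle, ovariectomized females given dexamethasone and ovariectomized females given vehicle. Dexamethasone, a synthetic glucocorticoid, was given at 1 mg/kg, the vehicle was PBS, and all livers were taken 6 h after treatment. Ovariectomy takes away the ovaries, which make most circulating oestrogen. The sources used here do not give the mice's age, the time since surgery or feeding before collection. Whether each replicate was a different mouse is not stated, so a p-value speaks only of the spread among these libraries, which may be technical.

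Cholesterol is built from acetyl-CoA through mevalonate, isoprenoid diphosphates, squalene and lanosterol. When sterols in the endoplasmic reticulum are low, SCAP escorts the SREBP2 precursor to the Golgi, where proteases release the active factor, which then drives the genes of synthesis and uptake. When sterols are high, INSIG1 and INSIG2 hold SCAP in the endoplasmic reticulum. Insig1 is itself an SREBP target, whereas liver Insig2 is known for its regulation by feeding.

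Values are log2 expression values as deposited, a difference is a log2 fold change ± SE fitted by limma on 3 libraries per group, and a gene passed where its adjusted p (Benjamini-Hochberg, over all genes tested) was under 0.05. The median gene tested had 8.82 to 8.86 in each library. The table keeps no read depth, so no counting error can be given, and levels of different genes are not compared because the values are not per length. The 6 hepatocyte markers were all tested, and their summed level (as log2) was 21.93 to 22.02 in intact dexamethasone, 22.08 to 22.26 in intact vehicle, 22.09 to 22.26 in ovariectomized dexamethasone and 22.01 to 22.15 in ovariectomized vehicle libraries. Among them Cps1 rose with dexamethasone in both gonadal states, and Fabp1 fell in ovariectomized females. All 4 B cell markers fell with dexamethasone in both gonadal states, with summed levels of 7.27 to 7.37 in intact dexamethasone against 7.75 to 8.2 in intact vehicle libraries, and of 7.01 to 7.13 in ovariectomized dexamethasone against 7.74 to 8.07 in ovariectomized vehicle libraries. Of 5 Kupffer cell markers tested, 3 fell with dexamethasone in intact and 2 in ovariectomized females, and all 5 were lower in ovariectomized than in intact vehicle libraries. Their summed level was 13.26 to 13.38 in intact dexamethasone, 13.54 to 13.59 in intact vehicle, 12.81 to 13.12 in ovariectomized dexamethasone and 13.04 to 13.25 in ovariectomized vehicle libraries. Of 5 stellate cell markers 3 rose with dexamethasone in intact and 1 in ovariectomized females, with summed levels of 13.59 to 13.75 in intact dexamethasone, 12.91 to 13.32 in intact vehicle, 13.34 to 13.62 in ovariectomized dexamethasone and 13.1 to 13.4 in ovariectomized vehicle libraries. The 4 adipocyte markers summed to 8.61 to 9.75 in ovariectomized dexamethasone libraries and to between 7.12 and 7.75 in the other groups, with Lep at 0 in every library and only Cidec high enough to be tested. Sinusoidal endothelial markers (5) summed to 12.33 to 12.69 in intact dexamethasone against 12.01 to 12.23 in intact vehicle libraries, and cholangiocyte markers (4) to 8.02 to 8.05 against 7.64 to 7.78. In ovariectomized females both sums overlapped between treatments. The endothelial markers moved in both directions. With dexamethasone Stab2 and Lyve1 rose and Kdr fell in intact females, and Lyve1 rose and Kdr and Clec4g fell in ovariectomized females. Of the cholangiocyte markers, Sox9 rose in intact and Epcam fell in ovariectomized females. Steroidogenic cell markers (4, of which 2 were tested) summed to 10.59 to 11.79 in ovariectomized dexamethasone against 9.17 to 9.99 in ovariectomized vehicle libraries, and overlapped in intact females. The 2 tested did not move together. Cyp17a1 rose with dexamethasone in intact (1.53) and ovariectomized females (1.75), while Star fell in ovariectomized females (-0.32) and did not pass in intact females. The part of these cell types in the results below was not tested. Between replicates of a group the root mean square difference per gene was 0.172 to 0.32. A single library, intact vehicle replicate 2, was the lowest of its group for every synthesis enzyme tested, so counts are also given without it.

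Part of this pathway fell with dexamethasone, and a few members rose. Fdft1, Sc5d, Stard4, Insig1, Scap, Npc1 and Soat2 fell in both gonadal states, and Insig2 and Mylip rose in both. Srebf2 itself fell in intact females and rose in ovariectomized females. In bulk liver RNA, fewer cells of a type and less RNA per cell cannot be told apart. In intact females 2 of 27 members rose (7.41%, against 22.8% of all genes tested) and 10 fell (37%, against 25.9%). In ovariectomized females 3 rose (11.1%, against 21.3% of all genes tested) and 9 fell (33.3%, against 19.4%). The median log2 fold change of the 27 members was -0.34 in intact and -0.21 in ovariectomized females, against 0 over all genes tested in each. The intact median was -0.12 without intact vehicle replicate 1, -0.21 without intact dexamethasone replicate 2 and -0.54 without intact vehicle replicate 2, and the ovariectomized median was -0.01 without ovariectomized vehicle replicate 3 and -0.36 without ovariectomized vehicle replicate 2. Of the 27 members, 7 fell in both comparisons, 2 rose in both, Srebf2 fell in intact and rose in ovariectomized females, 2 fell in intact females (Mvk and Lss) without passing in ovariectomized females, 2 fell in ovariectomized females (Pmvk and Npc2) without passing in intact females, and 13 passed in neither. The share of all genes with each such pair of calls was not computed, so these counts are not read as particular to the members.

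**Figure D1:**
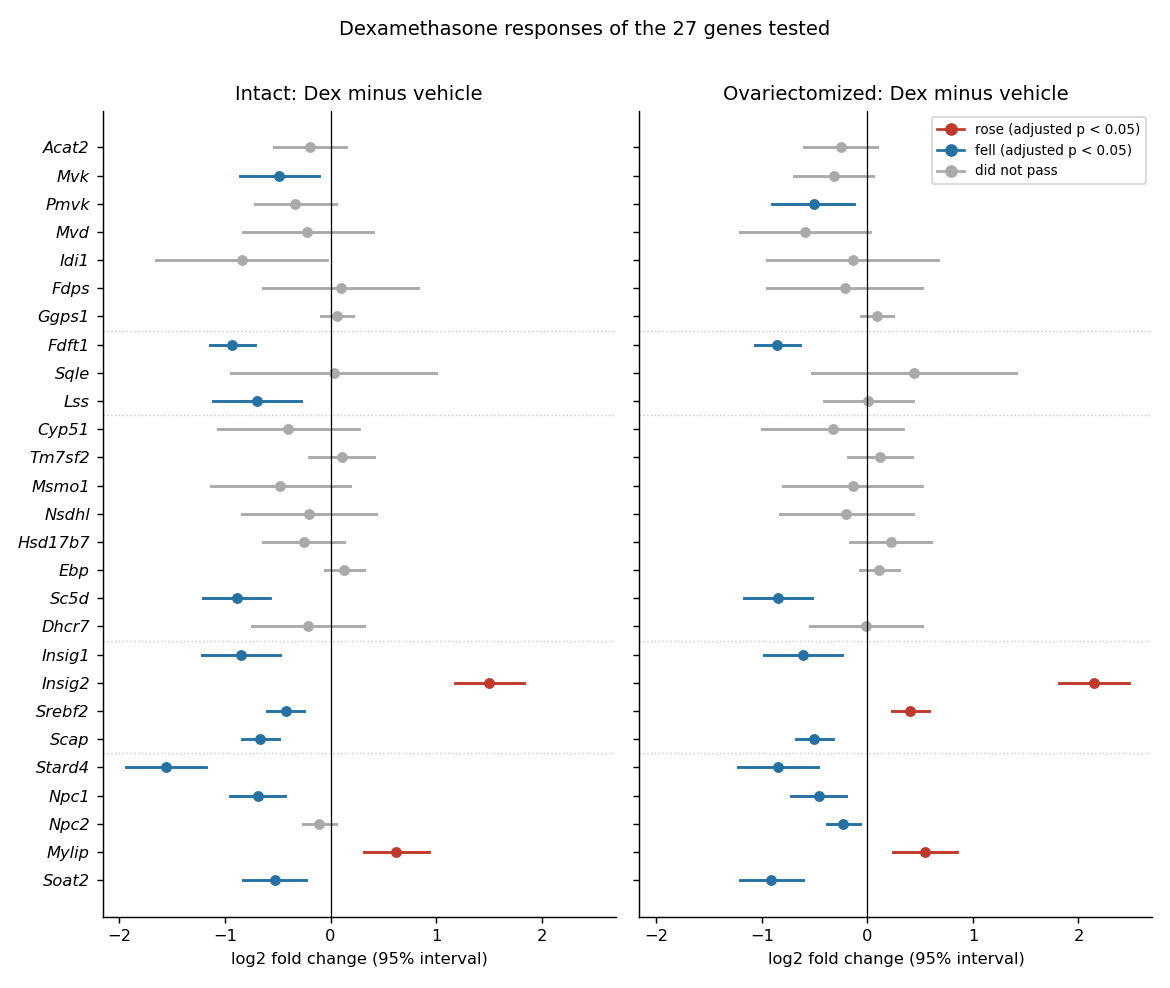
Log2 fold change of each of the 27 members tested, dexamethasone minus vehicle, in intact (left) and ovariectomized females (right), with its 95% interval, in 5 role groups divided by dotted lines; red marks genes that rose, blue those that fell and grey those that did not pass. From the top these are mevalonate and isoprenoid enzymes, squalene and lanosterol enzymes, enzymes after lanosterol, SREBP2 with its regulators, and sterol handling genes. Insig2 lies at 1.50 and 2.15 and Stard4 at -1.56 and -0.85, while most enzymes have intervals that include 0.

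The regulators held the largest rise of the pathway and, in Srebf2, a response that changed direction with gonadal state. All 4 passed in both dexamethasone comparisons. In intact females 1 rose (25%, against 22.8% of all genes tested) and 3 fell (75%, against 25.9%). In ovariectomized females 2 rose (50%, against 21.3%) and 2 fell (50%, against 19.4%). Insig2 and Insig1, which encode the paired retention proteins of SCAP, moved in opposite directions. The proximal promoters of Insig1, Insig2 and Srebf2 are shown with those of Sc5d, the enzyme with the largest fall in intact females among those with a promoter in the table, and of Hmgcs1, which holds the sterol element described below. Each is 300 bases from RefSeq's GRCm38.p6 annotation, 250 before to 50 after the transcript start, 5′ to 3′ on the gene's strand. Capitals mark the letters CCAAT (bound by NF-Y), GGGCGG (the GC box of Sp1) and TCACNCCAC (the sterol regulatory element consensus) on either strand. Positions are chr5:28071162-28071461, plus strand, for Insig1; chr1:121332540-121332839, minus strand, for Insig2 (the most upstream of its 3 starts); chr15:82147019-82147318, plus strand, for Srebf2; chr9:42264251-42264550, minus strand, for Sc5d; and chr13:119690101-119690400, plus strand, for Hmgcs1.
Insig1: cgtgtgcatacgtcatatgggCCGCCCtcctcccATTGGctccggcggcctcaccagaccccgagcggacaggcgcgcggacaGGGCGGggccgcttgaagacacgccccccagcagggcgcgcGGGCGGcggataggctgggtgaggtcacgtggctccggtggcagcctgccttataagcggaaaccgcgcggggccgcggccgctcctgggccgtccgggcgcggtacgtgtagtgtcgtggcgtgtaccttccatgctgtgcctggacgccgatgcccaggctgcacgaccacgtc
Insig2: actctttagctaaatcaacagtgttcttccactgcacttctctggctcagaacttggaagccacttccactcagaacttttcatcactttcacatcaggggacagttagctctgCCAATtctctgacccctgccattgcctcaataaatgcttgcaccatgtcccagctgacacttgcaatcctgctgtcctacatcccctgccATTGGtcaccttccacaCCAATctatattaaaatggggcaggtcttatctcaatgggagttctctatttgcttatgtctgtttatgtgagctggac
Srebf2: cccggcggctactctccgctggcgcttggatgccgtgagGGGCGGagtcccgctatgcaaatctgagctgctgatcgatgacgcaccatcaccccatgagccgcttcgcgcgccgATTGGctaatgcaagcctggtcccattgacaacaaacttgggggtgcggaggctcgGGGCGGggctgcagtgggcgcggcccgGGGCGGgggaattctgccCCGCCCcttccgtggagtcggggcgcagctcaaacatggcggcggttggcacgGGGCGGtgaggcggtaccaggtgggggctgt
Sc5d: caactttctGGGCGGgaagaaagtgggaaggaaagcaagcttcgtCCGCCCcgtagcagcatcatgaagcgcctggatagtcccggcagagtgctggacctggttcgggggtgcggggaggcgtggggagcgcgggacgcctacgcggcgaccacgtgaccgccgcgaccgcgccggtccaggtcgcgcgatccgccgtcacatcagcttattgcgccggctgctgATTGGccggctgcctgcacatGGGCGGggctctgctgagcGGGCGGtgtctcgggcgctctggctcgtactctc
Hmgcs1: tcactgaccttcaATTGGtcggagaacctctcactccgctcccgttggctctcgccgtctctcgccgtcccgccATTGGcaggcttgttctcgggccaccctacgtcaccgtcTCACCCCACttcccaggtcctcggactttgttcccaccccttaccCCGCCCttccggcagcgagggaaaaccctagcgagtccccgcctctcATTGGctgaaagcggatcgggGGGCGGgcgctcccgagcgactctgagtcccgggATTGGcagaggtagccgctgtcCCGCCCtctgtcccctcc

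Of the 28 genes, 22 had a promoter in the RefSeq table, with 28 windows in all; Fdps, Fdft1, Sqle, Stard4, Npc1 and Soat2 are named only. CCAAT was in 20 of the 28 windows (71.4%, against 37.4% of all 32851 windows of the same length) and GGGCGG in 23 (82.1%, against 35.7%). TCACNCCAC was in 1 window (3.57%, against 1.24% of all windows), that of Hmgcs1, starting 137 bases before the transcript start. Only exact matches were counted, so a window without one may still hold a variant of the element. The glucocorticoid response element consensus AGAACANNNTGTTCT was in none of the 28, and in 0.00913% of all windows. The window of Insig2 shown holds 3 CCAAT boxes and no GC box, while its other 2 windows hold no CCAAT box and 1 GC box each. The window of Insig1 holds 1 CCAAT box and 3 GC boxes. Both windows of Scap lack CCAAT and hold GC boxes. No motif overlaps another in the windows shown, and a match is a description of letters, not of a bound site.

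Insig2 (Entrez 72999) had levels of 12.58, 12.78 and 13.27 in intact dexamethasone libraries, against 11.49, 11.22 and 11.41 in intact vehicle libraries. In ovariectomized females it had 13.35, 13.74 and 13.57 in dexamethasone libraries, against 11.47, 11.38 and 11.35 in vehicle libraries. Every dexamethasone library lay above every vehicle library, and each ovariectomized dexamethasone library lay above each intact one, while the vehicle groups overlapped. The rise was 1.50 ± 0.15 in intact females (2.84-fold, adjusted p = 2.02e-05) and 2.15 ± 0.15 in ovariectomized females (4.44-fold, adjusted p = 2.67e-06). No 50-base word of Insig2 occurred in transcripts of another gene.

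Insig1 (Entrez 231070), the member of the pair that SREBP itself induces, had levels of 11.98, 11.68 and 11.76 in intact dexamethasone libraries and 12.88, 12.4 and 12.69 in intact vehicle libraries. In ovariectomized females it had 11.91, 11.83 and 11.86 with dexamethasone and 12.34, 12.17 and 12.93 with vehicle. The dexamethasone libraries were all below the vehicle libraries of the same gonadal state, and in both states the vehicle libraries were spread more widely. It fell by 0.85 on the log2 scale in intact females (SE 0.17, adjusted p = 0.00158) and by 0.61 in ovariectomized females (SE 0.17, adjusted p = 0.0137). Without ovariectomized vehicle replicate 3, the highest of its group, the ovariectomized value for Insig1 was -0.39, and the adjusted p was at most 0.0389 over all alternatives.

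Scap (Entrez 235623), the sterol-sensing escort of SREBP, had 11.58, 11.71 and 11.33 in intact dexamethasone libraries, against 12.28, 12.13 and 12.2 in intact vehicle libraries. With ovariectomy it had 11.46, 11.51 and 11.51 in dexamethasone libraries, against 12.04, 11.96 and 12 in vehicle libraries. The groups did not overlap in either state, and the ovariectomized libraries were closely spaced within each group. The fold changes were -0.67 ± 0.08 in intact (adjusted p = 6.22e-05) and -0.51 ± 0.08 in ovariectomized females (adjusted p = 0.000516). A share of 9.96% of Scap's 50-base words also occurs in 5830462I19Rik, so some of its reads could be assigned to either gene.

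Srebf2 (Entrez 20788), which encodes SREBP2, had 10.51, 10.23 and 10.47 in intact dexamethasone libraries, against 10.91, 10.71 and 10.86 in intact vehicle libraries. In ovariectomized females the order was the opposite, with 10.92, 10.94 and 10.91 in dexamethasone libraries against 10.46, 10.47 and 10.64 in vehicle libraries. None of these group pairs overlapped. It changed by -0.42 ± 0.08 in intact females (0.746-fold, adjusted p = 0.00121) and by 0.40 ± 0.08 in ovariectomized females (1.32-fold, adjusted p = 0.00225). The ovariectomized dexamethasone libraries were at the level of the intact vehicle libraries, and the intact dexamethasone libraries near that of the ovariectomized vehicle libraries.

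**Figure D2:**
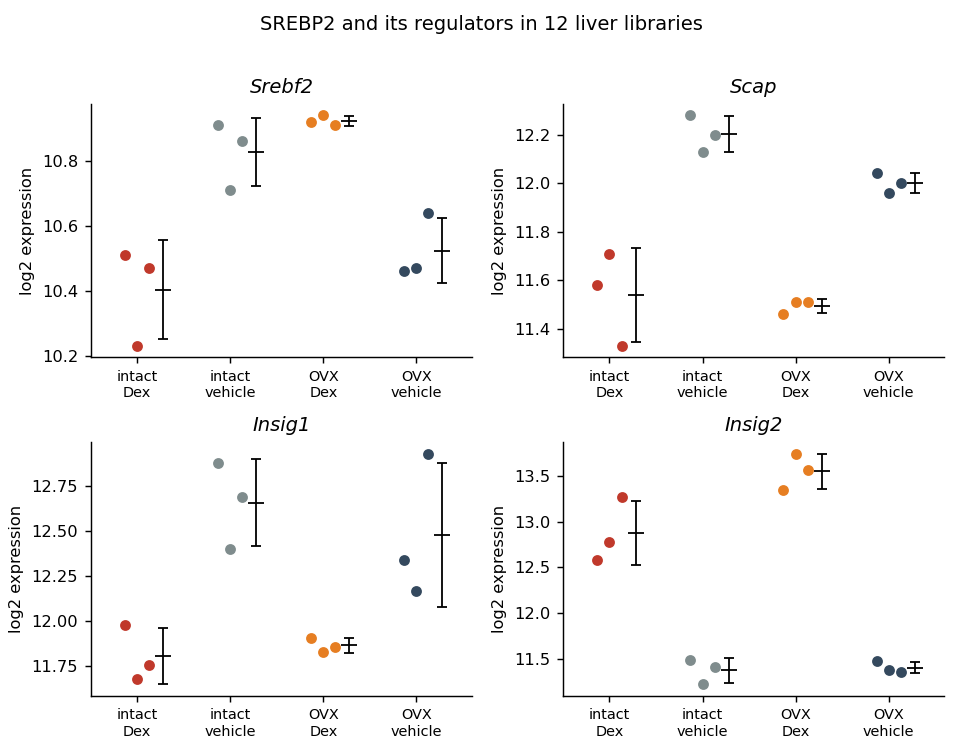
Log2 expression of Srebf2, Scap, Insig1 and Insig2 in each library (dots, replicates 1 to 3 from left to right) with the mean ± SD of each group (black), n = 3 per group; Dex is dexamethasone and OVX ovariectomized. The vertical axes differ between panels and do not start at 0. In Srebf2 the means are 10.40 and 10.82 in intact dexamethasone and vehicle libraries but 10.92 and 10.52 in ovariectomized ones, whereas Insig2 is at 12.58 to 13.74 in the dexamethasone libraries and at 11.22 to 11.49 in the vehicle libraries.

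Among the 18 synthesis enzymes tested, 4 fell in intact females (22.2%, against 25.9% of all genes tested) and 3 in ovariectomized females (16.7%, against 19.4%), shares near those of all genes. None rose in either (against 22.8% and 21.3% of all genes), and at an unadjusted limma p under 0.05, 5 and 3 fell and 0 rose. Their median log2 fold change was -0.23 in intact and -0.17 in ovariectomized females. The ovariectomized median had the other sign without ovariectomized vehicle replicate 3 (0.07) and was -0.35 without ovariectomized vehicle replicate 2. The enzymes that passed in both were Fdft1 and Sc5d.

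Fdft1 (Entrez 14137) encodes squalene synthase, the first enzyme committed to sterols. Its levels were 10.67, 10.43 and 10.75 in intact dexamethasone libraries, against 11.61, 11.46 and 11.55 in intact vehicle libraries, and 10.57, 10.46 and 10.55 in ovariectomized dexamethasone libraries, against 11.25, 11.31 and 11.59 in ovariectomized vehicle libraries. No dexamethasone library reached a vehicle library. The change was -0.93 ± 0.097 in intact females (52.6% of the vehicle level, adjusted p = 2.65e-05) and -0.86 ± 0.097 in ovariectomized females (55.3%, adjusted p = 7.2e-05). Of Fdft1's 50-base words, 26.5% occur in transcripts of other genes, 17.2% in those of Ctsb, so its value is uncertain to that extent.

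Sc5d (Entrez 235293), the desaturase of lathosterol late in the pathway, had 12.84, 12.74 and 12.79 in intact dexamethasone libraries, against 13.83, 13.4 and 13.82 in intact vehicle libraries. The ovariectomized groups had 12.73, 12.84 and 12.94 with dexamethasone and 13.58, 13.43 and 14.04 with vehicle. Again the groups did not overlap. Its changes were -0.89 ± 0.15 (adjusted p = 0.000451) in intact and -0.85 ± 0.15 (adjusted p = 0.000914) in ovariectomized females.

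Lss (Entrez 16987), which encodes lanosterol synthase, had 9.35, 9.02 and 9.51 in intact dexamethasone libraries, against 10.3, 9.53 and 10.15 in intact vehicle libraries, where it fell by 0.70 on the log2 scale (SE 0.19, adjusted p = 0.0101). In ovariectomized females it had 9.68, 9.45 and 9.68 with dexamethasone and 9.57, 9.36 and 9.85 with vehicle, a difference of 0.01 ± 0.19 (95% interval -0.41 to 0.43). The highest intact dexamethasone library (9.51) lay just under the lowest intact vehicle library (9.53) and the ovariectomized groups overlapped. The difference between the responses, 0.71 ± 0.27, did not pass (adjusted p = 0.0738).

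Early in the pathway, Pmvk (Entrez 68603), phosphomevalonate kinase, had 9.71, 9.55 and 9.62 in ovariectomized dexamethasone libraries, against 10.1, 9.82 and 10.51 in ovariectomized vehicle libraries. In intact females it had 9.61, 9.51 and 9.75 with dexamethasone and 10.26, 9.58 and 10.04 with vehicle, which overlapped. It fell by 0.51 on the log2 scale in ovariectomized females (SE 0.18, adjusted p = 0.0367), and without ovariectomized vehicle replicate 3 the value was -0.33 (adjusted p = 0.148). In intact females its change of -0.34 ± 0.18 did not pass (adjusted p = 0.137). Mvk, mevalonate kinase, changed by -0.49 ± 0.17 in intact females (adjusted p = 0.0334, and 0.133 without intact vehicle replicate 1). In ovariectomized females Mvk changed by -0.32 ± 0.17 and did not pass (adjusted p = 0.148).

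The other 13 enzymes tested passed in neither comparison. In the mevalonate and isoprenoid branch these were Acat2, the cytosolic thiolase; Mvd, mevalonate diphosphate decarboxylase; Idi1, the isopentenyl diphosphate isomerase; Fdps, farnesyl diphosphate synthase; and Ggps1, geranylgeranyl diphosphate synthase. Their log2 fold changes lay between -0.84 (Idi1) and 0.10 (Fdps) in intact females and between -0.59 (Mvd) and 0.09 (Ggps1) in ovariectomized females. The others were Sqle, squalene epoxidase, and 7 enzymes after lanosterol: Cyp51, the lanosterol demethylase; Tm7sf2, a sterol reductase; Msmo1, the methylsterol oxidase; Nsdhl and Hsd17b7, which act with it in demethylation; Ebp, the sterol isomerase; and Dhcr7, the 7-dehydrocholesterol reductase. These 8 lay between -0.48 (Msmo1) and 0.13 (Ebp) in intact females and between -0.33 (Cyp51) and 0.44 (Sqle) in ovariectomized females. Their intervals were wide for several: that of Sqle ran from -0.94 to 1.00 in intact and from -0.53 to 1.41 in ovariectomized females, whereas that of Ebp ran from -0.05 to 0.32 and from -0.07 to 0.30. Copies make some of them uncertain, since 39.1% of the 50-base words of Acat2 occur in Acat3, and 26.2% of those of Fdps and 25.3% of those of Idi1 in other genes.

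Hmgcs1, the cytosolic HMG-CoA synthase, was listed in 2 entries under 1 Entrez ID, with means of 3.77 and 1.16 over all libraries, both below the minimum for testing. The higher entry ranged from 3.27 to 4.19. Hmgcs1 is known as an abundant liver transcript, so its reads may be incomplete in these entries and its values are uncertain. With no minimum its log2 fold change was -0.23 ± 0.24 in intact females (adjusted p = 0.496) and -0.19 ± 0.24 in ovariectomized females (adjusted p = 0.609).

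Between libraries, the enzymes varied widely between replicates of 1 group, and they did so together. In intact vehicle libraries the median SD of the 18 enzymes was 0.42, against 0.095 over all genes tested, and in ovariectomized vehicle libraries it was 0.31, against 0.084. With dexamethasone the median SD of the enzymes was 0.21 in intact females (0.099 over all genes) and 0.094 in ovariectomized females (0.089 over all genes). In intact vehicle replicate 2 all 18 enzymes were the lowest of the 3 replicates, compared with 39.3% of all genes, and their median lay 0.47 below the group mean. Ovariectomized vehicle replicate 3 was the highest of its group for all 18 enzymes (35.6% of all genes), with a median 0.35 above the group mean, and intact dexamethasone replicate 2 was the lowest of its group for 17 of 18 (34.5% of all genes). Replicate 2 was also the lowest for 16 of 18 enzymes in ovariectomized vehicle libraries (34% of all genes) and for 13 of 18 in ovariectomized dexamethasone libraries (37.3% of all genes), so the low library carried that number in all 4 groups.

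Sqle, named here after its values were seen, shows the pattern at its widest. It had 10.22, 9.32 and 10.69 in intact dexamethasone libraries and 10.82, 8.9 and 10.41 in intact vehicle libraries, and replicate 2 was the lowest of both groups. In ovariectomized females it had 10.4, 9.91 and 10.19 with dexamethasone and 9.62, 9.38 and 10.18 with vehicle. Of the 9 regulators and handling genes, 5 were also the lowest of their group in intact vehicle replicate 2 (Insig1, Insig2, Srebf2, Scap and Stard4) and 2 the highest (Npc2 and Soat2), with a median 0.07 below the group mean. Over all genes, the deviations of same-numbered libraries from their group means had correlations from -0.23 to 0.40. The highest was between intact and ovariectomized dexamethasone replicates 2. Intact dexamethasone replicate 2 also had 0.22 with ovariectomized vehicle and 0.19 with intact vehicle replicate 2, while the other replicate 2 pairs lay between -0.04 and 0.03. Whether the number marks a shared batch, and what the low and high libraries share, was not tested.

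**Figure D3:**
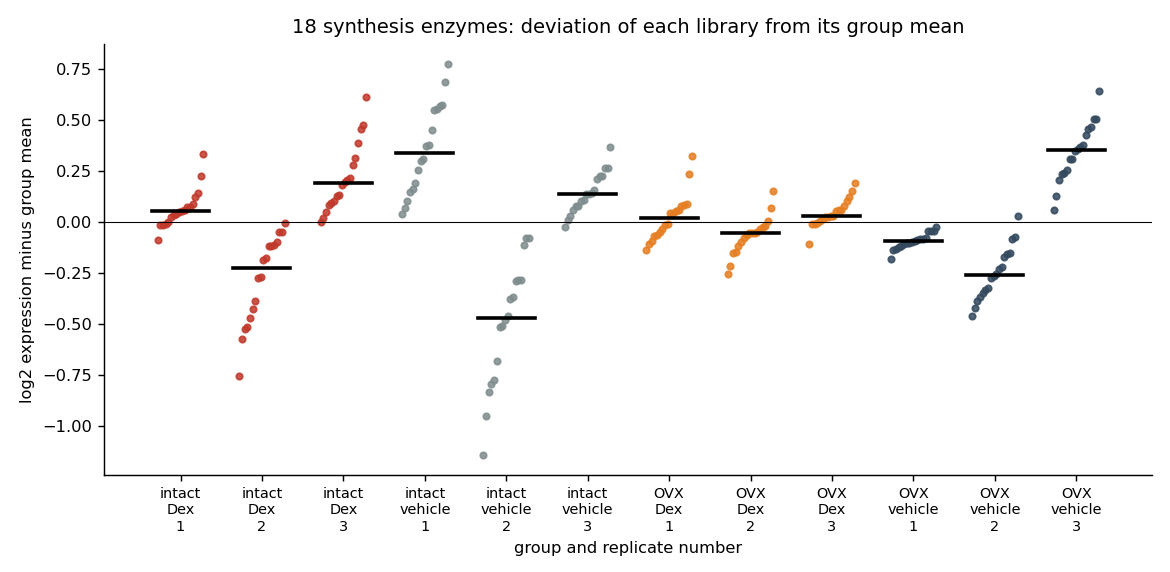
Log2 expression minus the mean of the library's own group for each of the 18 synthesis enzymes (dots, sorted by value within a library) in the 12 libraries, with the median as a black bar. The bars lie at -0.47 in intact vehicle replicate 2 and at 0.35 in ovariectomized vehicle replicate 3, and within 0.06 of 0 in the 3 ovariectomized dexamethasone libraries.

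Without intact vehicle replicate 2, more enzymes passed in intact females: 9 of 18 fell and 0 rose, with a median log2 fold change of -0.55, and 15 of the 27 members fell and 2 rose. Over all 12965 genes tested, 5887 passed in either direction without that library, against 6323 with all libraries. Pmvk (-0.53), Idi1 (-1.32), Cyp51, Nsdhl and Hsd17b7 (-0.49) were the enzymes added. Since that library was the lowest for all 18 enzymes, leaving it out raises their intact vehicle means. The added falls follow in part from that choice. Without intact vehicle replicate 1, 3 enzymes fell in intact females, with 5374 calls over all genes, and the median of the enzymes was -0.08. It was -0.14 without intact dexamethasone replicate 2 and -0.36 without intact dexamethasone replicate 3. The falls of Fdft1, Lss and Sc5d in intact females passed under every alternative and every left-out library, as did those of Fdft1 and Sc5d in ovariectomized females.

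**Figure D4:**
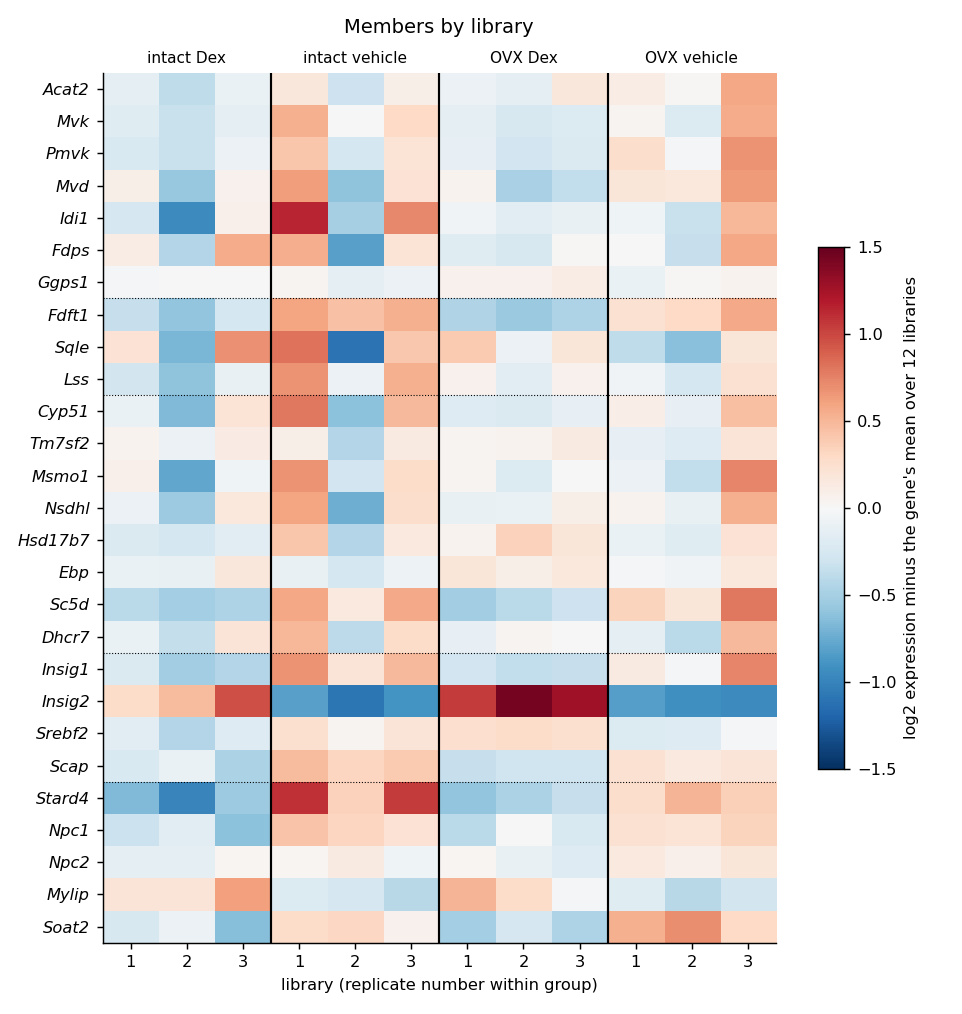
Log2 expression of the 27 members in each of the 12 libraries, minus the gene's mean over all libraries; red is above and blue below that mean. Rows follow the role groups, enzymes first, and the columns are replicates 1 to 3 of each group, with Dex for dexamethasone and OVX for ovariectomized. The enzyme rows of intact vehicle replicate 2 are paler or bluer than those of replicates 1 and 3, while the Insig2 row is blue in all 6 vehicle libraries and red in all 6 dexamethasone libraries.

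Of the 5 genes that move, store or spare sterols, Stard4, Npc1 and Soat2 fell and Mylip rose in both gonadal states, and Npc2 fell in ovariectomized females. In intact females 1 rose (20%, against 22.8% of all genes tested) and 3 fell (60%, against 25.9%). In ovariectomized females 1 rose (20%, against 21.3%) and 4 fell (80%, against 19.4%). Stard4 (Entrez 170459), a soluble carrier that moves cholesterol between membranes, had the largest fall of all members in intact females. It had 8.97, 8.65 and 9.09 in intact dexamethasone libraries, against 10.73, 9.98 and 10.68 in intact vehicle libraries. The ovariectomized groups had 9.04, 9.16 and 9.29 with dexamethasone, against 9.9, 10.14 and 9.99 with vehicle. Neither pair overlapped. Its change was -1.56 ± 0.17 in intact females (34% of the vehicle level, adjusted p = 4.08e-05) and -0.85 ± 0.17 in ovariectomized females (55.4%, adjusted p = 0.00259). The difference between these responses, 0.71 ± 0.25, did not pass (adjusted p = 0.0553), and was 0.95 without intact vehicle replicate 2 (adjusted p = 0.00283).

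Npc1 (Entrez 18145), the membrane protein that exports cholesterol from lysosomes, had 11.74, 11.9 and 11.44 in intact dexamethasone libraries, against 12.49, 12.38 and 12.28 in intact vehicle libraries. It had 11.65, 12.07 and 11.83 in ovariectomized dexamethasone libraries, against 12.29, 12.26 and 12.39 in ovariectomized vehicle libraries. The groups did not overlap, and the spread was larger with dexamethasone. Npc1 fell by 0.69 on the log2 scale in intact (SE 0.12, adjusted p = 0.000648) and by 0.46 in ovariectomized females (SE 0.12, adjusted p = 0.00929). Npc2, its soluble partner in the lysosome, changed by -0.23 ± 0.071 in ovariectomized females (adjusted p = 0.0247, and up to 0.102 with 1 library left out) and by -0.11 ± 0.071 in intact females, which did not pass (adjusted p = 0.226).

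Soat2 (Entrez 223920), the cholesterol acyltransferase of hepatocytes and enterocytes, had 10.25, 10.4 and 9.85 in intact dexamethasone libraries, against 10.76, 10.8 and 10.55 in intact vehicle libraries. In ovariectomized females it had 9.98, 10.24 and 10.03 with dexamethasone, against 11.02, 11.18 and 10.79 with vehicle. All dexamethasone libraries lay below all vehicle libraries. Soat2 changed by -0.53 ± 0.14 (adjusted p = 0.00727) in intact and by -0.91 ± 0.14 (adjusted p = 0.000411) in ovariectomized females.

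Mylip (Entrez 218203), also called IDOL, is an LXR-induced ubiquitin ligase that sends lipoprotein receptors to degradation. It had 8.82, 8.82 and 9.24 in intact dexamethasone libraries, against 8.42, 8.37 and 8.21 in intact vehicle libraries, and 9.14, 8.9 and 8.61 in ovariectomized dexamethasone libraries, against 8.44, 8.21 and 8.35 in ovariectomized vehicle libraries. The groups stayed apart in both states, with a wide spread among dexamethasone libraries. It rose by 0.62 ± 0.14 in intact females (adjusted p = 0.0033) and by 0.55 ± 0.14 in ovariectomized females (adjusted p = 0.00882).

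**Figure D5:**
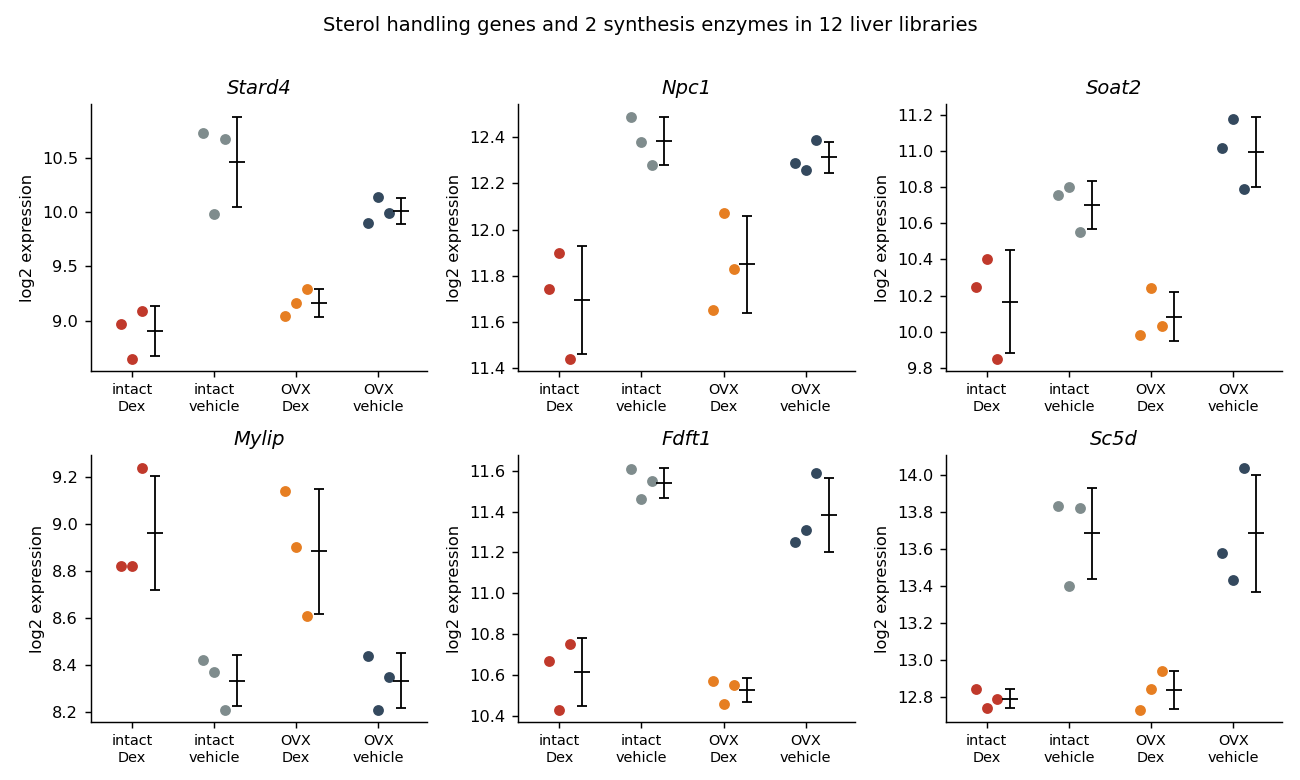
Log2 expression of Stard4, Npc1, Soat2, Mylip, Fdft1 and Sc5d in each library (dots, replicates 1 to 3 from left to right) with the mean ± SD of each group (black), n = 3 per group; Dex is dexamethasone and OVX ovariectomized. The vertical axes differ between panels and do not start at 0. In each panel the dexamethasone libraries lie on 1 side of the vehicle libraries of the same gonadal state, above for Mylip and below for the other 5 genes.

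Few members passed for ovariectomy by itself. Intervals of some enzymes under vehicle were wide (Idi1 -1.24 to 0.39, Sqle -1.29 to 0.65), so larger differences there could be missed. With library weights 8 members passed under vehicle, and 5919 of all genes. Under vehicle 0 of 27 rose in ovariectomized relative to intact females (12.4% of all genes tested rose) and 1 fell (3.7%, against 15.5%), with a median log2 fold change of -0.06, against -0.01 over all genes. At an unadjusted limma p under 0.05, 0 members rose and 3 fell. The gene that passed was Srebf2, at -0.30 ± 0.08 (adjusted p = 0.0171), with 10.46, 10.47 and 10.64 in ovariectomized against 10.91, 10.71 and 10.86 in intact vehicle libraries. The call was lost without intact vehicle replicate 1 or 3 or without ovariectomized vehicle replicate 1 or 2 (values -0.26 to -0.29, adjusted p = 0.0566 to 0.0716). Insig2 did not differ beyond the spread under vehicle (0.03 ± 0.15, 95% interval -0.30 to 0.36). Without intact vehicle replicate 2, 4 members fell: Srebf2, Idi1 (-0.90), Lss (-0.63) and Stard4 (-0.69). Over all genes tested 3749 passed in either direction without that library, against 3618 with all libraries. Without ovariectomized vehicle replicate 3, the highest of its group for every enzyme tested, 2 members fell, Insig1 and Srebf2, with 2660 calls over all genes.

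Under dexamethasone 2 of 27 members rose in ovariectomized relative to intact females (7.41%, against 7.74% of all genes tested) and 0 fell (against 5.08%). At an unadjusted limma p under 0.05, 3 rose and 0 fell. The median log2 fold change of the members was 0.06, against 0.02 over all genes. Over all genes the calls were 1004 higher and 658 lower, but 728 and 782 with libraries recentred and 400 and 368 under quantile normalization. Srebf2 was higher by 0.52 ± 0.08 (adjusted p = 0.00527), a call kept under every alternative. Insig2 was higher by 0.67 ± 0.15 (adjusted p = 0.0199), with every ovariectomized library (13.35 to 13.74) above every intact one (12.58 to 13.27). That call was lost under quantile normalization (0.49, adjusted p = 0.0862), with only the libraries compared (adjusted p = 0.0694), and without intact dexamethasone replicate 1 or ovariectomized dexamethasone replicate 2 or 3 (values 0.52 to 0.66).

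The test of the difference between the responses, ovariectomized minus intact, passed for 2 of 27 members, both upward (7.41%, against 15.3% of all genes tested), and for 0 downward (against 9.65%). At an unadjusted limma p under 0.05, 4 were upward and 0 downward. The median difference was 0.08, against 0.01 over all genes. For Srebf2 it was 0.82 ± 0.11 (95% interval 0.58 to 1.07, adjusted p = 0.00087), and over the 21 alternatives it stayed between 0.71 and 0.88 with an adjusted p of at most 0.00363. For Insig2 it was 0.65 ± 0.21 (95% interval 0.18 to 1.11, adjusted p = 0.0443), and the call was lost in 14 of 21 alternatives (0.44 to 0.91 over all of them, adjusted p up to 0.184). No enzyme passed in limma (1 had an unadjusted p under 0.05, Lss), and intervals were wide: that of Fdft1 ran from -0.23 to 0.37 and that of Idi1 from -0.45 to 1.84. Without intact vehicle replicate 2 the difference passed for 6 members, adding Idi1 (1.17), Lss (0.94), Hsd17b7 (0.71) and Stard4 (0.95), all upward. Over all genes tested it passed in either direction for 3520 without that library, against 3234 with all libraries. That library was the lowest of its group for every enzyme tested, so leaving it out moves their differences upward. Leaving out ovariectomized vehicle replicate 3, the highest of its group for every enzyme, moves them the same way. Without it 1 member passed, Srebf2, with 2540 calls over all genes. The 2 ovariectomy comparisons and the difference share libraries with the dexamethasone comparisons.

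Genes that cut SREBP or degrade sterol-regulated proteins moved in both directions. Of 12, 2 rose (16.7%, against 22.8% of all genes tested) and 6 fell (50%, against 25.9%) in intact females, with a median of -0.21. In ovariectomized females 5 rose (41.7%, against 21.3%) and 2 fell (16.7%, against 19.4%), with a median of 0.11. Erlin1, which encodes an endoplasmic reticulum scaffold that binds cholesterol and restrains SREBP, changed by -0.94 ± 0.071 in intact and -0.79 ± 0.071 in ovariectomized females. Ube2g2, the ubiquitin-conjugating enzyme of endoplasmic reticulum degradation, rose by 0.72 ± 0.13 and 1.11 ± 0.13. Under vehicle 6 of the 12 were lower in ovariectomized than in intact females (50%, against 15.5% of all genes) and 0 higher (7 and 0 at an unadjusted limma p under 0.05), with Erlin1 at -0.26 ± 0.071. Under dexamethasone 2 were higher (16.7%, against 7.74% of all genes) and 0 lower (against 5.08%), with 3 and 0 unadjusted. For 5 of the 12 the difference between responses passed, all upward (41.7%, against 15.3% of all genes upward and 9.65% downward), with 6 unadjusted.

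Genes of LXR and sterol efflux fell in larger part. Of 8, 1 rose (12.5%, against 22.8% of all genes tested) and 6 fell (75%, against 25.9%) in intact females, with a median of -0.65. In ovariectomized females 2 rose (25%, against 21.3%) and 4 fell (50%, against 19.4%), with a median of -0.56. Abcg8, a subunit of the canalicular sterol transporter, changed by -1.39 ± 0.1 and -0.99 ± 0.1, and Srebf1, the lipogenic relative of Srebf2, by -1.30 ± 0.2 and -0.98 ± 0.2. Abcg5, the other subunit, changed by -0.93 ± 0.098 and -0.99 ± 0.098. Abca1, the transporter that loads high-density lipoprotein, also had responses of opposite sign. It changed by -0.38 ± 0.097 in intact and by 0.38 ± 0.097 in ovariectomized females, and its difference between responses was 0.76 ± 0.14 (adjusted p = 0.00314). Abca1 was the 1 of the 8 that passed for this difference (12.5%, against 15.3% of all genes upward). Ovariectomized vehicle libraries were lower than intact ones in 1 of the 8 (12.5%, against 15.5% of all genes), Abca1 (-0.45 ± 0.097). Under dexamethasone 0 of 8 passed in limma (against 7.74% of all genes higher and 5.08% lower), with 2 higher and 0 lower at an unadjusted p under 0.05.

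Among 17 genes of intracellular sterol movement and ester hydrolysis, 1 rose (5.88%, against 22.8% of all genes tested) and 9 fell (52.9%, against 25.9%) in intact females, with a median of -0.17. In ovariectomized females 3 rose and 3 fell (17.6% each, near the 21.3% and 19.4% of all genes), with a median of -0.02. Lipa, the lysosomal acid lipase, changed by -0.85 ± 0.075 and -0.53 ± 0.075. Scarb1, the high-density lipoprotein receptor, changed by -0.24 ± 0.072 in intact and 0.24 ± 0.072 in ovariectomized females, with a difference of 0.48 ± 0.1 (adjusted p = 0.00647). In ovariectomized relative to intact females, 1 was higher (5.88%, against 12.4% of all genes) and 3 lower (17.6%, near the 15.5% of all genes) under vehicle. Under dexamethasone 2 were higher and 2 lower (11.8% each, against 7.74% and 5.08% of all genes). The difference between responses passed for 6 upward (35.3%, against 15.3% of all genes) and for 1 downward (5.88%, against 9.65%). The latter was Gramd1a, a sterol transfer protein of membrane contact sites (-0.54 ± 0.095).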

How the data were processed

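Liver RNA was sequenced from libraries of the Illumina TruSeq kit V2, per the labels. Trim Galore, TopHat2, HTSeq, DESeq and DESeq2 and the genome build mm9 are named in the submitters' processing notes, without versions. What the authors deposited is a table of DESeq-normalized log2 values, per the labels. Its exact transformation, its annotation and whether counting used strand are not stated. Depth is therefore unknown, and changes of low genes may be understated.

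The table held 24962 entries from -2.22 to 22.03, 6294 of them at 0 in every library. For 392 symbols with several entries, that with the highest mean was kept. Genes with a mean of at least 4 (12965) were fitted with 4 group means in limma 3.58.1 (R 4.3.3, eBayes with a trend, 8 residual degrees of freedom), and the fit was tested on simulated data. There were 5 contrasts: the response to dexamethasone in intact and in ovariectomized females, the effect of ovariectomy under vehicle and under dexamethasone, and the difference between the responses.

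The members and lists were chosen with earlier results of these data known. Values in every library are given for the 12 members with the largest change that passed, which include the 4 regulators, and fold changes for up to 2 genes of each other list in a comparison. Sqle, Scarb1, Rabggtb and Abcg5 were named after their values were seen. Promoters are RefSeq's (GRCm38.p6). Shared sequence is the share of a gene's 50-base words, from GENCODE transcripts of GRCm38, found in another gene; no coordinates of the deposited table were used. Alternatives were every gene not at 0 throughout, a stricter minimum of 6, a pseudocount of 8, recentring, quantile normalization, eBayes without a trend or with a robust prior, library weights, a fit of only the libraries compared, a replicate block and leaving out each library.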

Additional observations from a re-analysis of the deposited data

Results flagged for a closer look

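Srebf2 is set apart because its response to dexamethasone differed between gonadal states in the test of the difference itself. The difference, ovariectomized minus intact, was 0.82 (log2), made up of a rise of 0.40 in ovariectomized and a change of -0.42 in intact females, and in each state all 3 dexamethasone libraries lay on 1 side of all 3 vehicle libraries. Insig2 is set apart for the same reason, with a difference of 0.65 between rises of 2.15 in ovariectomized and 1.50 in intact females. The call for Insig2 was lost in 14 of 21 alternatives (adjusted p up to 0.184), and that for Srebf2 in 0 of 21. Both were named with earlier results of these data known, and no cause was tested. No group had 4 or more libraries, so no single library was tested as an outlier.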

How the results depend on the processing

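No result changed direction while called, and of 29 calls of members 23 were kept under every alternative. The 6 lost in some were Mvk (intact), Pmvk and Npc2 (ovariectomized), Srebf2 (ovariectomy, vehicle) and Insig2 (ovariectomy, dexamethasone, and the difference between responses). The count of members that passed stayed within 1.5 times of 12 in both dexamethasone comparisons. For the difference between responses 2 members passed as reported and 1 with no filter, recentring, quantile normalization, no variance trend or a robust prior; with library weights 7 did. Under dexamethasone, ovariectomized against intact, 2 passed as reported, 1 under quantile normalization and 4 with library weights. Under vehicle 1 passed as reported, 8 with library weights and 2 with only the libraries compared. With 1 library left out, from 1 to 6 members passed for the difference (6 without intact vehicle replicate 2, 5 without intact dexamethasone replicate 3), 1 to 3 for ovariectomy under dexamethasone and 0 to 4 under vehicle. Over all genes, ovariectomy under dexamethasone gave 1662 calls as reported, 768 under quantile normalization, 5777 with library weights, 601 with only the libraries compared and 207 to 1852 with 1 library left out (207 without ovariectomized dexamethasone replicate 3, 312 without intact dexamethasone replicate 1, and 922 and 993 without ovariectomized dexamethasone replicates 1 and 2). Ovariectomy under vehicle gave 3618 calls, 5919 with library weights and 2215 to 3989 with 1 left out (2215 without intact vehicle replicate 1), and the difference between responses 3234 and, with library weights, 6659. The cause of these shifts was not tested.

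Replicate numbers paired the libraries in part at most (18 pairs of same-numbered libraries, r from -0.23 to 0.40, 6 over 0.1), and 6 of 12 libraries correlated best with their own number. A batch shared by number was not tested. With the replicate block, 3 members passed for ovariectomy under vehicle (adding Lss at -0.40 and Soat2 at 0.29) and 5 for the difference between responses (adding Lss at 0.71, adjusted p = 0.00925, Stard4 at 0.71, 0.0463, and Soat2 at -0.38, 0.0345). Idi1 in intact (-0.84) and Mvd in ovariectomized females (-0.59) also passed for dexamethasone with the block. With 3 libraries per group and no read depth, a difference under the intervals given could not be detected, and levels near the minimum of 4 carry an unknown counting error.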

Other observations

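Genes of the isoprenoid branches, which use the same precursors for dolichol, ubiquinone and protein prenylation, changed in both directions. Of 13, 1 rose (7.69%, against 22.8% of all genes tested) and 6 fell (46.2%, against 25.9%) in intact females, with a median of -0.06. In ovariectomized females 4 rose (30.8%, against 21.3%) and 2 fell (15.4%, against 19.4%), with a median of -0.02. Pggt1b, the geranylgeranyl transferase subunit, changed by -0.39 ± 0.11 in intact and by 0.37 ± 0.11 in ovariectomized females, and its difference between responses was 0.77 ± 0.16 (limma adjusted p = 0.00529). Rabggtb, a subunit of the Rab prenylating enzyme, rose by 0.38 ± 0.075 and 0.34 ± 0.075. Pdss1, which makes the ubiquinone side chain, rose by 0.55 ± 0.092 in ovariectomized females. Under vehicle 2 were lower (15.4%, near the 15.5% of all genes) and 0 higher (against 12.4%) in ovariectomized than in intact females (3 and 0 at an unadjusted limma p under 0.05). Under dexamethasone 0 passed in limma, against 7.74% of all genes higher and 5.08% lower (2 higher and 0 lower at an unadjusted p under 0.05). For the difference between responses 3 passed upward (23.1%, against 15.3% of all genes) and 0 downward (against 9.65%).

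Of 10 further SREBP targets and electron donors of sterol enzymes, 0 rose (against 22.8% of all genes tested) and 5 fell (50%, against 25.9%) in intact females, with a median of -0.34, and at an unadjusted limma p under 0.05, 0 rose and 6 fell. In ovariectomized females 1 rose (10%, against 21.3%) and 3 fell (30%, against 19.4%), with a median of -0.24. Acly, which makes cytosolic acetyl-CoA, changed by -0.85 ± 0.2 in intact and -1.31 ± 0.2 in ovariectomized females. Cyb5b, a cytochrome b5, changed by -0.70 ± 0.093 and -0.44 ± 0.093. Por, the reductase that feeds electrons to Cyp51 and squalene epoxidase, rose by 0.70 ± 0.098 in ovariectomized females, and its difference between responses was 0.82 ± 0.14 (limma adjusted p = 0.00218). Between ovariectomized and intact vehicle libraries the difference in Por was -0.57 ± 0.098.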
